A study of Mus musculus with 102 samples.

Results

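Epidermal stem cells of adult mice on control diet were compared between the 2 times of day ZT16 and ZT4, on 8 of the 53 adult and 49 aged arrays of the series. Zeitgeber time (ZT) is the time in h counted from lights on; the light schedule is not given in the sources used here. The arrays were chosen by their labels alone (adult animal, control diet, time point), which gave 4 arrays of ZT16 and 4 of ZT4. The whole series crosses 2 ages with 2 diets, control or calorie restriction (CR, 30% less food), at 6 time points. The mice compared here were 47 to 57 weeks old and had been fed control diet ad libitum for 25 weeks after an adaptation of 3 weeks. Like every other group of the series, they were C57B6/J mice carrying the Per1-Venus BAC transgene, which reports the activity of the clock gene Per1 by fluorescence. The series' design names 4 mice for each time point and diet, with the mice of 1 day all belonging to 1 time point. The day of killing and the time point therefore cannot be told apart, and the labels do not give the day of an array. How the stem cells were separated from the epidermis is not given in the sources used here.

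The circadian clock is a feedback loop in which the transcription factors ARNTL and CLOCK (or NPAS2) switch on the Per and Cry genes through E-box sequences, and the PER and CRY proteins then shut ARNTL and CLOCK off. A further set of clock-driven factors, Dbp, Tef and Hlf, carries the rhythm to other genes through D-box sequences, while the REV-ERB (Nr1d) and ROR proteins act on Arntl. In the epidermis this clock is known for placing DNA synthesis and mitosis of the stem cells at different times of day. Genes that copy DNA are transcribed around S phase and genes of the spindle and of chromosome segregation around mitosis, so both groups can be read from the same RNA.

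Values are log2 RMA levels, in which a difference of 1 is a doubling, for 13383 genes tested. Array medians lay between 5.486 and 5.627 at ZT4 and between 5.528 and 5.714 at ZT16. Replicate 2 of ZT16 stood apart from the rest, with the highest median (5.714) and the lowest 95th percentile (9.512) of all arrays of the series, so counts are also given without it. The labels give no sex. Xist, which is transcribed from the inactive X chromosome, stood above the mean level of Y-linked genes on 2 of the 4 arrays of ZT16 and on 3 of the 4 of ZT4.

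The cells carried the marks of basal keratinocytes at both times. Krt14 and Krt5, the keratins of the basal layer, stood at 12.49 ± 0.04 and 12.42 ± 0.10 at ZT4 and at 12.47 ± 0.08 and 12.39 ± 0.18 at ZT16 (mean ± SD, n = 4 arrays each). Krt15, a keratin of bulge and basal cells, stood at 11.94 ± 0.12 and 11.91 ± 0.13 (mean ± SD, n = 4 arrays each). Of the list of hair follicle bulge markers 7 of 11 genes passed the filter on dim genes (Krt15, Sox9, Nfatc1, Foxc1, Postn, Fgf18 and Cxcl14). The bulge markers Cd34, Lgr5, Lhx2 and Tbx1 did not pass it and have no test. Markers of other cells were measured in part. Of 11 differentiated keratinocyte markers 10 were matched to a probe set with 1 gene symbol. The filter was passed by 9 of them (among them Krt1 and Krt10, not Flg). Their summed level on the log2 scale was 12.88 to 13.58 at ZT4 and 13.13 to 13.62 at ZT16. Of 7 red blood cell markers 4 were matched, and all 4 passed. Their summed level was 11.59 to 11.79 at ZT4 and 11.47 to 11.83 at ZT16. Of the 8 T cell genes 7 were matched (not Lck), and 6 passed the filter (Cd3e, Cd3g, Cd3d, Cd2, Thy1 and Cd247, not Ptprc). Of the Langerhans and myeloid list 6 of 9 genes passed (among them H2-Aa and Cd74, not Cd207). Melanocyte markers passed for 3 of 7 (Pmel, Mitf and Sox10, not Dct, Tyrp1 or Mlana) and fibroblast markers for 4 of 7 (Col1a1, Col3a1, Dcn and Pdgfrb, not Pdgfra or Lum).

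Few genes differed between ZT16 and ZT4. With limma and Benjamini-Hochberg adjustment, 9 of 13383 genes (0.0672%) passed an adjusted p of 0.05. Of these 4 were higher at ZT16 (0.0299% of the genes tested): Per2, Per3 and Tef of the clock, and Mthfd1l, a mitochondrial enzyme of one-carbon metabolism that releases formate. The other 5 were lower at ZT16 (0.0374% of the genes tested): Aspm, Cenpf, Cdkn3 and Cdc20, all of cell division, and Tmem269, which encodes a transmembrane protein. At an unadjusted p under 0.05 there were 783 genes (5.85%). Groups did not overlap for 8 of the 9, whereas 1.02% of all genes tested lay wholly higher and 0.919% wholly lower at ZT16. The count depended on single arrays. Leaving out 1 of the 4 arrays of ZT16 (replicates 1 to 4 in turn) gave 14, 5, 5 and 3 genes, and leaving out 1 of ZT4 (replicates 1 to 4) gave 3, 3, 4 and 5. Per2, Mthfd1l and Tef passed in all of these 8 fits. In the fit on the 8 arrays alone 3 of the 9 passed, Per2, Aspm and Cenpf. Tef (adjusted p = 0.155) and Mthfd1l (adjusted p = 0.429) did not pass there.

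**Figure D1:**
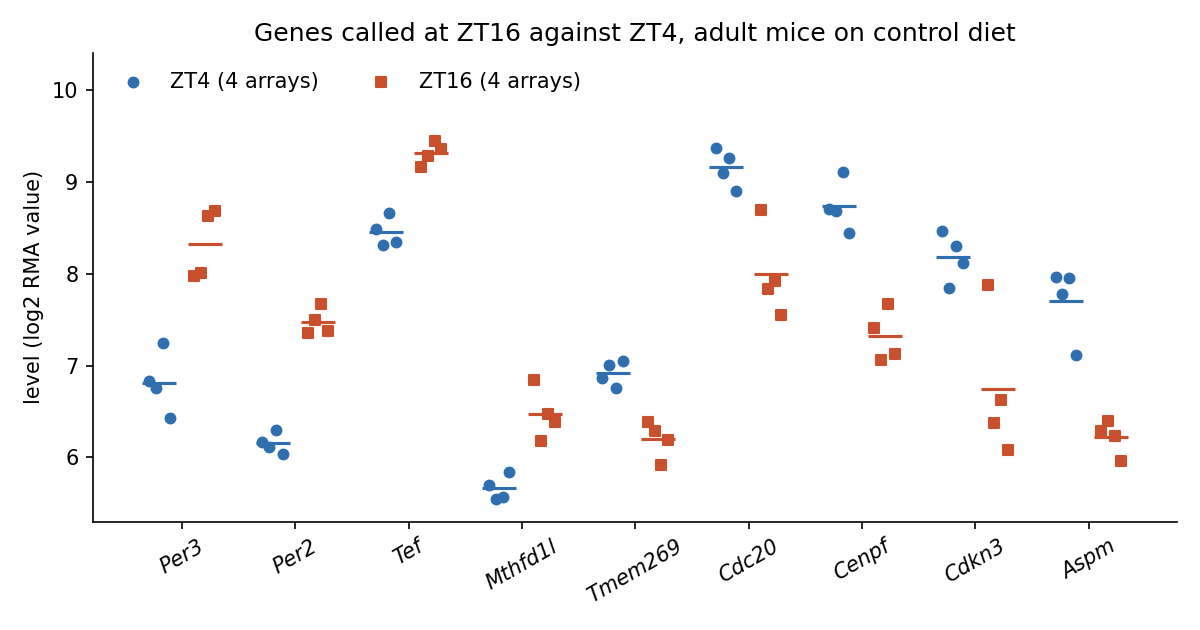
Level (log2 RMA value) on each array for the 9 genes past the adjusted p, at ZT4 (circles) and ZT16 (squares), with a line at each group's mean. The 2 groups of 4 arrays lie apart for every gene shown except Cdkn3, where 1 array of ZT16 (7.88) lies above the lowest of ZT4 (7.84).

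Per2, a repressor of the clock, was 2.49 times higher at ZT16. Its levels were 6.17, 6.11, 6.30 and 6.04 on the ZT4 arrays (replicates 1 to 4) and 7.35, 7.50, 7.67 and 7.38 on those of ZT16. The groups did not overlap, and each was narrow beside the gap between them. The difference was 1.32 ± 0.19 (log2 ± SE, adjusted p = 7.54e-06), and the less bright probe set of Per2 gave 2.22. Over the 6 time points Per2 was highest at ZT12, at 8.04 ± 0.42 (SD, n = 4), and lowest at ZT0, at 5.89 ± 0.25 (SD, n = 4).

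Per3, its paralogue, was 2.85 times higher at ZT16. Levels were 6.83, 6.75, 7.24 and 6.43 at ZT4 and 7.97, 8.01, 8.63 and 8.68 at ZT16. All ZT16 arrays lay above all ZT4 arrays, with replicates 3 and 4 of ZT16 highest. The difference was 1.51 ± 0.32 (adjusted p = 0.0225). It kept its size but not its call when single arrays were left out: the adjusted p was 0.119 and 0.211 without replicate 3 or 4 of ZT16 and 0.0897, 0.0935 and 0.128 without replicate 1, 2 or 4 of ZT4. The 4 other probe sets of Per3 gave 1.16, 1.10, 0.37 and, for the dimmest, 0.21.

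Tef, a transcription factor of the D-box family, was 1.82 times higher at ZT16. Levels were 8.48, 8.31, 8.66 and 8.34 at ZT4 and 9.16, 9.28, 9.44 and 9.36 at ZT16. Every ZT16 array was above every ZT4 array. The difference was 0.86 ± 0.15 (adjusted p = 0.00116), and 1.09 by its other probe set. Tef too was highest at ZT12 (9.58 ± 0.14, SD, n = 4), so ZT16 caught it after its highest mean and ZT4 before it.

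The promoters of Per3 and Tef are shown because both genes rose and the clock acts on such sequences through known motifs. They are the 250 bases before the start site in RefSeq (GRCm38.p6), with Per3 at chr4:151044666-151044915 on the minus strand and the 2 start sites of Tef at chr15:81802423-81802672 and chr15:81811164-81811413 on the plus strand. Capitals mark the D-box core (TTATGTA or TTACGTA) in Per3 and the E-box (CACGTG, the same on both strands) in Tef.
Per3: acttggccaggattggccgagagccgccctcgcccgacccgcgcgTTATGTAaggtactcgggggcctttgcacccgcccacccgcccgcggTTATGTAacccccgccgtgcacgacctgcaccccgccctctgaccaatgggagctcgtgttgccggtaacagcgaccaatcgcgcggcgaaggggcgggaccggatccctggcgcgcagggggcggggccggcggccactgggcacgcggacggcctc
Tef, start site 1: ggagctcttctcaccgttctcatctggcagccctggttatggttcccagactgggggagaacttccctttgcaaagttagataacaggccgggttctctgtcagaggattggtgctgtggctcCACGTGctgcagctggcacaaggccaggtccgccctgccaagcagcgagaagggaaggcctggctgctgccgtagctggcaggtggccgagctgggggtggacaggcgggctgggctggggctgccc
Tef, start site 2: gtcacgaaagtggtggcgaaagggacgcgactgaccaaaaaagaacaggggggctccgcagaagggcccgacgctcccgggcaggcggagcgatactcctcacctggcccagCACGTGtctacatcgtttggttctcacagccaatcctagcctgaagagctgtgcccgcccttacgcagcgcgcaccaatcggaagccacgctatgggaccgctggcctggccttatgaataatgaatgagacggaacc
Per3 held 2 D-box cores, 205 and 158 bases before its start, and no E-box in this window. Tef held 1 E-box before each start site, beginning 127 and 138 bases upstream, and no D-box core. Over all 32851 promoters of this length, both strands searched, 2.75% held the D-box core and 6.02% the E-box. These are matches of letters and do not show that a factor binds there. The promoter of Mthfd1l matched none of the motifs searched, the RORE core TAGGTCA (2.23% of promoters) among them.

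The other members of the clock's repressing arm did not pass the test. Of 10 tested repressors 2 rose (Per2 and Per3), 0 fell, and the median difference was 0.211, against -0.017 over all genes tested. Ciart, a repressor that binds the ARNTL and CLOCK pair, stood at 6.55, 6.58, 6.83 and 6.50 at ZT4 and at 7.15, 6.99, 6.88 and 7.26 at ZT16. Its groups did not overlap, but the difference of 0.45 ± 0.16 had an adjusted p of 0.632 (unadjusted 0.00511). Cry2 stood at 7.89, 7.73, 7.95 and 7.48 at ZT4 and at 8.41, 7.67, 8.38 and 8.68 at ZT16, with replicate 2 of ZT16 inside the range of ZT4. Its difference was 0.52 ± 0.19 (adjusted p = 0.684, unadjusted 0.00791). Cry1, its paralogue, differed by 0.69 ± 0.36 (adjusted p = 0.854), and unlike Cry2 it was lowest at ZT4 (5.58 ± 0.36) and highest at ZT0 (7.03 ± 0.75, SD, n = 4 each).

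Nr1d2, which encodes REV-ERB beta, a repressor of Arntl, had close means at these 2 times at its brighter probe set. It was at 9.19 ± 0.50 at ZT4 and 9.16 ± 0.05 at ZT16 (SD, n = 4 each), a difference of -0.03 ± 0.21 that turned to 0.03 with each array centred on its median, and its dimmer probe set gave -0.26. Its mean was 9.80 ± 0.26 at ZT12 and 8.09 ± 0.25 at ZT0 (SD, n = 4 each). Per1 differed by -0.18 ± 0.24, with 1 low array of ZT16 (replicate 1, at 8.13, the other three at 9.20 to 9.69), and by 0.13 without that array. Whether its probe set also reads the reporter transgene was not tested. The casein kinases Csnk1d and Csnk1e, which phosphorylate the PER proteins, differed by -0.09 ± 0.19 and -0.25 ± 0.18, and the repressor Bhlhe40 by -0.05 ± 0.26, which was 0.00 with arrays centred. Nr1d1 is not analysed here.

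Among the factors of the D-box family 1 of 4 tested members rose (Tef) and 0 fell, with a median of 0.429. Hlf differed by 0.49 ± 0.19 (adjusted p = 0.736, unadjusted 0.0126), with levels between 8.24 and 9.33 at ZT4 and between 9.09 and 9.41 at ZT16. The ZT16 arrays lay close together, over the upper part of a wide ZT4 group, and the highest of them was above all of ZT4. Dbp differed by 0.36 ± 0.31 (adjusted p = 0.877). It stood at 6.91, 6.08, 7.55 and 6.34 at ZT4 and at 7.68, 6.51, 7.26 and 6.88 at ZT16, so the groups overlapped widely, while its mean at ZT12 was 8.62 ± 0.57 (SD, n = 4). Nfil3, a repressor at the same D-box sequences, differed by -0.14 ± 0.30.

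Of 5 tested clock activators, each at its brightest probe set, 0 passed the test and 0 had an unadjusted p under 0.05. Arntl, the partner of CLOCK, stood at 8.59, 7.92, 8.12 and 8.55 at ZT4 and at 6.88, 8.29, 8.44 and 8.64 at ZT16. Replicate 1 of ZT16 was low and the other three lay within 0.1 of the ZT4 range or inside it. The difference was -0.23 ± 0.46, and 0.16 without replicate 1 of ZT16. Clock and Npas2 differed by -0.31 ± 0.21 and -0.23 ± 0.16, and Rora, an activator of Arntl, by 0.09 ± 0.15. Arntl2 differed by 0.06 ± 0.16 at its brightest probe set and by -0.33 at the other. Npas2 also had a probe set almost as bright (7.48 against 7.79 over all arrays) with a larger difference, -1.15. Over 23 alternative limma fits, the test of each probe set among them, the lowest adjusted p of Npas2 was 0.0541.

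**Figure D2:**
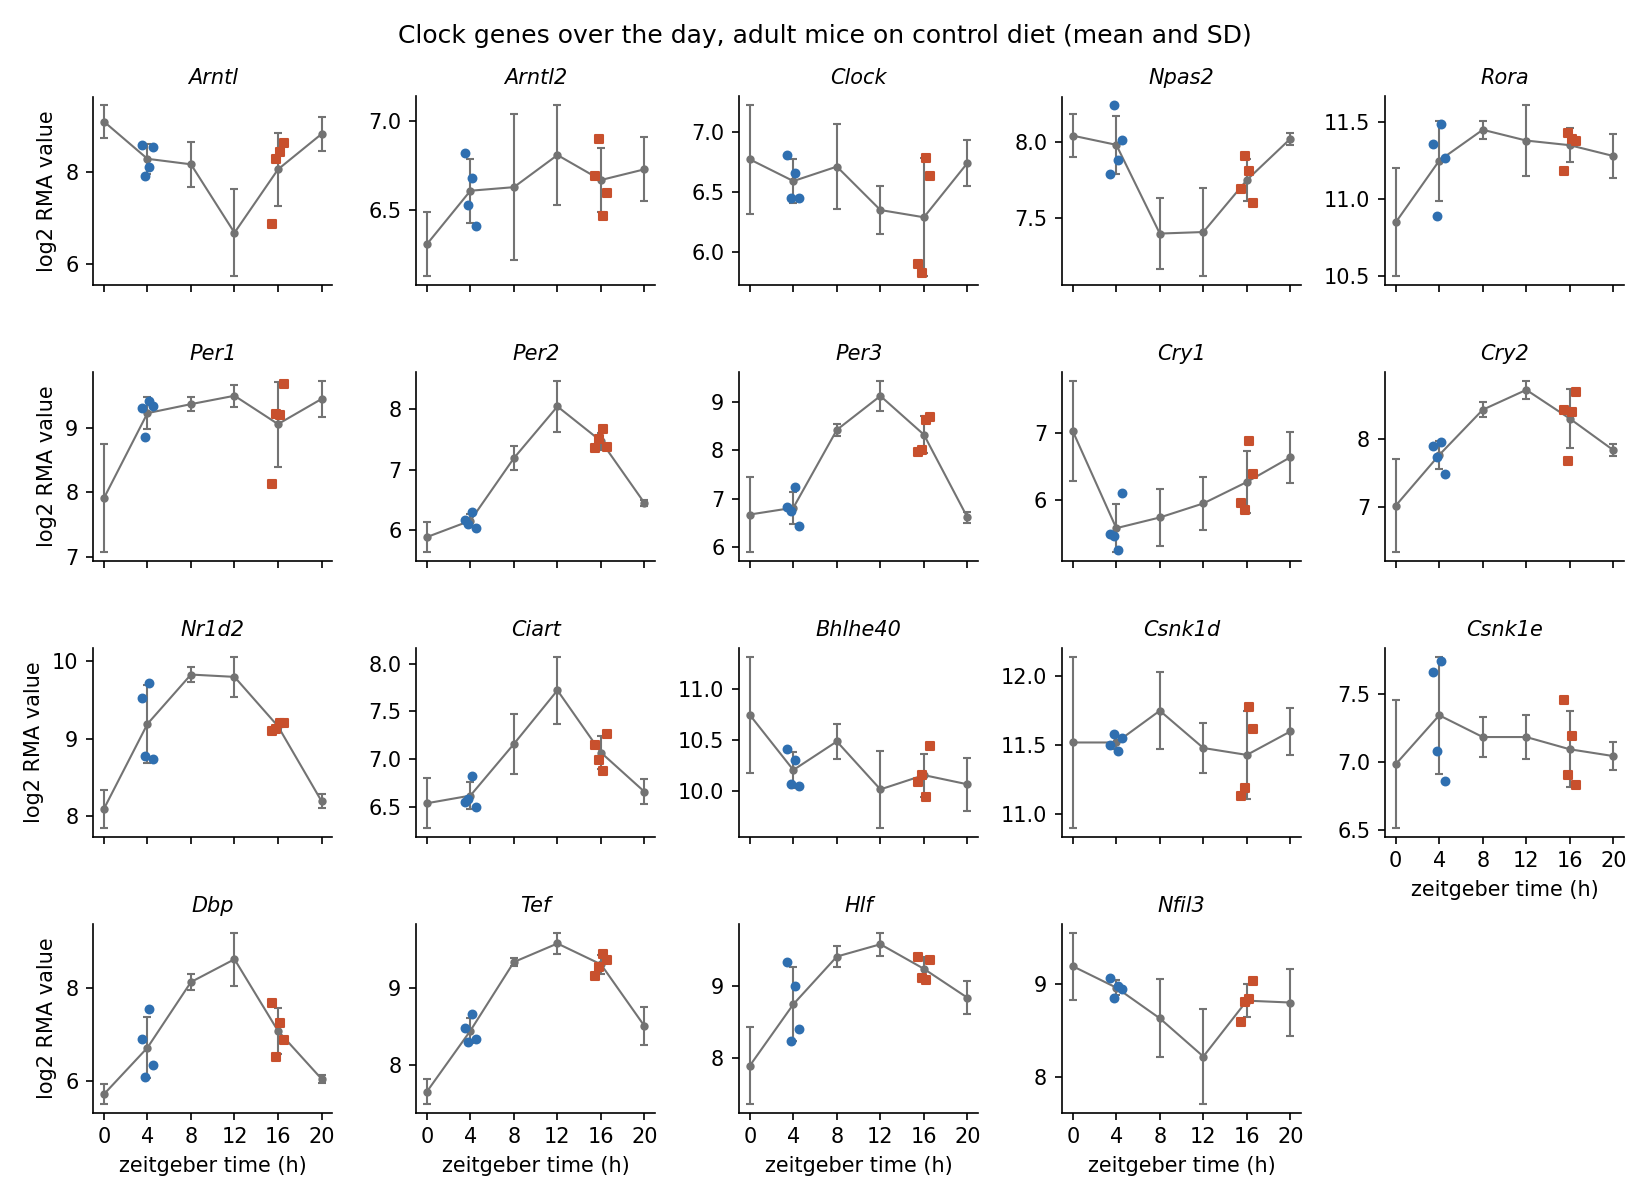
Level (log2 RMA value) of the 19 tested clock genes at 6 zeitgeber times (h) in adult mice on control diet; grey points and bars are the mean and SD of 3 or 4 arrays, circles the ZT4 arrays and squares the ZT16 arrays. Per2, Per3 and Tef are highest at ZT12 and higher at ZT16 than at ZT4, while Nr1d2 has means of 9.19 and 9.16.

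Mthfd1l was the rise outside the clock lists, 1.75 times higher at ZT16. Levels were 5.70, 5.55, 5.57 and 5.84 at ZT4 and 6.84, 6.18, 6.47 and 6.38 at ZT16. The groups did not overlap, and replicate 1 of ZT16 was highest. The difference was 0.81 ± 0.13 (adjusted p = 1.02e-04), and 0.68 without that array (adjusted p = 0.00796).

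Most genes of mitosis had lower values at ZT16, but few passed the test. Of 29 tested members of the mitosis list 2 fell (Cenpf and Cdc20) and 0 rose; 28 lay below 0 and 19 had a lower level at an unadjusted p under 0.05, against 53.6% and 2.72% of all genes tested. The median of the list was -0.484. Aspm and Cdkn3, which also fell, are not on that list.

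Aspm, a protein of the spindle pole, was 2.79 times lower at ZT16. Levels were 7.96, 7.78, 7.95 and 7.11 at ZT4 and 6.29, 6.40, 6.23 and 5.96 at ZT16. Even the lowest ZT4 array, replicate 4, lay above all of ZT16. The difference was -1.48 ± 0.29 (adjusted p = 0.00831), with -1.32 and -1.63 at the other 2 probe sets. The adjusted p was 0.0887 without replicate 4 of ZT16 and 0.088, 0.0562 and 0.0702 without replicate 1, 2 or 3 of ZT4.

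Cenpf, a protein of the kinetochore, was 2.66 times lower at ZT16. Levels were 8.70, 8.68, 9.10 and 8.44 at ZT4 and 7.41, 7.06, 7.67 and 7.13 at ZT16. All ZT4 arrays lay above all ZT16 arrays. The difference was -1.41 ± 0.30 (adjusted p = 0.0221). The second probe set gave -1.03, and another, much dimmer one gave 0.09. The adjusted p was 0.12 and 0.152 without replicate 2 or 4 of ZT16 and 0.088, 0.0648 and 0.172 without replicate 1, 2 or 3 of ZT4.

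Cdc20, which activates the anaphase-promoting complex, was 2.23 times lower at ZT16. Levels were 9.37, 9.09, 9.26 and 8.90 at ZT4 and 8.69, 7.83, 7.92 and 7.55 at ZT16. Replicate 1 of ZT16 lay nearest to the ZT4 arrays but did not reach them. The difference was -1.16 ± 0.26 (adjusted p = 0.046), and it passed in 1 of the 8 fits that left out an array, the one without replicate 1 of ZT16 (adjusted p = 0.00796). In the other 7 the adjusted p lay between 0.0644 and 0.519.

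Cdkn3, a phosphatase that acts on cyclin-dependent kinases, was 2.71 times lower at ZT16. Levels were 8.46, 7.84, 8.30 and 8.11 at ZT4 and 7.88, 6.37, 6.63 and 6.08 at ZT16. Replicate 1 of ZT16 overlapped the ZT4 arrays and the other three were well below. The difference was -1.44 ± 0.32 (adjusted p = 0.0442), and -1.82 without replicate 1 of ZT16 (adjusted p = 0.0022). It did not pass without any 1 of the other 7 arrays, where the adjusted p lay between 0.0648 and 0.519.

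The promoters of Cdkn3 and Cdc20 are shown because genes of late cell division commonly carry a CHR element (TTTGAA) with CCAAT boxes nearby. They are the 250 bases before the start site in RefSeq (GRCm38.p6), Cdkn3 at chr14:46760291-46760540 on the plus strand and Cdc20 at chr4:118437344-118437593 on the minus strand. Capitals mark the CHR and the CCAAT box on either strand (TTCAAA and ATTGG are their reverse).
Cdkn3: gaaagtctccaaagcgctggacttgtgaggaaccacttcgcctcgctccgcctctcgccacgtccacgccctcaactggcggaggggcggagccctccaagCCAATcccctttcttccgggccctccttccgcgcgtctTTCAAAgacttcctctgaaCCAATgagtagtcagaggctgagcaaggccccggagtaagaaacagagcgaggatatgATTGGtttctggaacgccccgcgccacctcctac
Cdc20: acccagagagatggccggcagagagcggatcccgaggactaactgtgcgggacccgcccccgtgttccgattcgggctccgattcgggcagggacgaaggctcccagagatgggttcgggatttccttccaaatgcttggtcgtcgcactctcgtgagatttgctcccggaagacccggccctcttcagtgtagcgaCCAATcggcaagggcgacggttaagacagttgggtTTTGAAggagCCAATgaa
Each held 1 CHR, and Cdkn3 held 3 CCAAT boxes and Cdc20 held 2. Aspm and Cenpf held 3 and 2 CCAAT boxes and no CHR in the same window. The promoters of the rising genes held CCAAT boxes too, not marked above: 3 in Per3, and 1 and 2 before start sites 1 and 2 of Tef. Of all 32851 promoters 16% held a CHR and 33.8% a CCAAT box, so neither is rare. Tmem269 matched none of the motifs searched, and 8 of the 9 genes had a promoter in the table.

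Tmem269 was 1.65 times lower at ZT16, with levels of 6.86, 7.01, 6.75 and 7.05 at ZT4 and 6.39, 6.29, 5.92 and 6.19 at ZT16. The groups did not overlap. The difference was -0.72 ± 0.16 (adjusted p = 0.0364), and it passed in 1 of the 8 fits without an array (without replicate 1 of ZT16, adjusted p = 0.0209), with adjusted p between 0.0552 and 0.192 in the other 7. With arrays centred on their median it was -0.66 (adjusted p = 0.113).

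Further members of the mitosis list lay just outside the threshold. The genes named from here on that did not pass were chosen after their values were seen. Ccnb2, a cyclin of mitosis, differed by -1.24 (adjusted p = 0.0682) and Cenpa, the histone of centromeres, by -1.50 (adjusted p = 0.0876). Cenpa stood at 8.79, 8.12, 8.56 and 8.62 at ZT4 and at 7.36, 6.32, 7.57 and 6.85 at ZT16, without overlap. Ube2c, the ubiquitin-conjugating enzyme of the anaphase-promoting complex, stood at 9.42, 9.39, 9.30 and 9.19 at ZT4 and at 8.99, 8.28, 8.05 and 8.17 at ZT16 (adjusted p = 0.111). All 5 genes with an adjusted p between 0.05 and 0.1 had lower values at ZT16: Ccnb2, Cenpa, Ckap2 (-0.94) and Psrc1 (-0.80), which bind microtubules, and Sorcs2 (-1.37), a sorting receptor. Members of the list with no difference to speak of were Bub1 (-0.02 ± 0.17), a kinase of the spindle checkpoint, and Hmmr (0.19 ± 0.24), the only tested member above 0.

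Genes of DNA replication lay on the other side of 0. Of 36 tested members 0 passed the adjusted p, but 34 lay above 0 and 17 were higher at an unadjusted p under 0.05, against 46.4% and 3.13% of all genes tested; 0 were lower at that p. The median was 0.373. Groups did not overlap, with ZT16 higher, for 4 of the 36, against 1.02% of all genes tested. The 6 subunits of the MCM helicase, which unwinds DNA, differed by 0.71 (Mcm2), 0.71 (Mcm3), 0.27 (Mcm4), 0.68 (Mcm5), 0.36 (Mcm6) and 0.07 (Mcm7). Mcm5 stood at 9.45, 8.74, 9.57 and 9.40 at ZT4 and at 10.67, 9.71, 9.69 and 9.84 at ZT16, without overlap (adjusted p = 0.748). The GINS complex, which works with that helicase, differed by 0.66 (Gins1), 0.47 (Gins2), 0.17 (Gins3) and 0.06 (Gins4).

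The polymerase that starts new strands showed values in the same direction in all of its subunits, 0.66 for Pola1, 0.37 for Pola2, 0.46 for Prim1 and 0.41 for Prim2. The smallest p of the list belonged to Mcm10, a loading factor, at 6.59, 6.62, 6.78 and 6.89 at ZT4 and 7.13, 7.09, 7.24 and 7.04 at ZT16. Its groups did not overlap, and the difference was 0.41 ± 0.12 (adjusted p = 0.362, unadjusted 0.00152). Lig1, which joins the pieces of the lagging strand, differed by 0.69 ± 0.24 (adjusted p = 0.632). Pcna, the sliding clamp, differed by 0.10 ± 0.15, and the clamp loaders Rfc3 and Rfc4 by 0.00 ± 0.16 and -0.07 ± 0.22. E2f1, the factor that switches on many replication genes, stood at 6.26, 6.10, 6.34 and 6.24 at ZT4 and at 7.04, 6.54, 6.53 and 6.64 at ZT16 (adjusted p = 0.27), while the list of G1 to S control as a whole had a median of -0.002 over 21 tested genes.

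Averaged over the list on each array, replication genes deviated from their mean over all adult control arrays by -0.12, -0.35, 0.03 and -0.15 at ZT4 and by 0.67, -0.10, 0.14 and 0.13 at ZT16. Replicate 1 of ZT16 was far above the others and replicate 2 inside the ZT4 range. Without replicate 1 of ZT16 the count of members higher at an unadjusted p under 0.05 was 7, without replicate 2 of ZT4 it was 9, and without replicate 2 of ZT16 it was 20. Mitosis genes deviated by 0.42, 0.19, 0.38 and 0.27 at ZT4 and by 0.16, -0.52, -0.23 and -0.40 at ZT16. Every ZT4 array was above every ZT16 array, and here too replicate 1 was the highest of ZT16. The count of lower members was 13 without replicate 2 of ZT16, 13 without replicate 4, and 12 without replicate 1 of ZT4. Over the day the replication list was highest at ZT12 (0.44) and lowest at ZT0 (-0.49), and the mitosis list was highest at ZT20 (0.34) and ZT4 (0.32) and lowest at ZT12 (-0.32), with -0.25 at ZT16. Fewer cells in a phase and less RNA per cell cannot be told apart in such bulk samples.

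**Figure D3:**
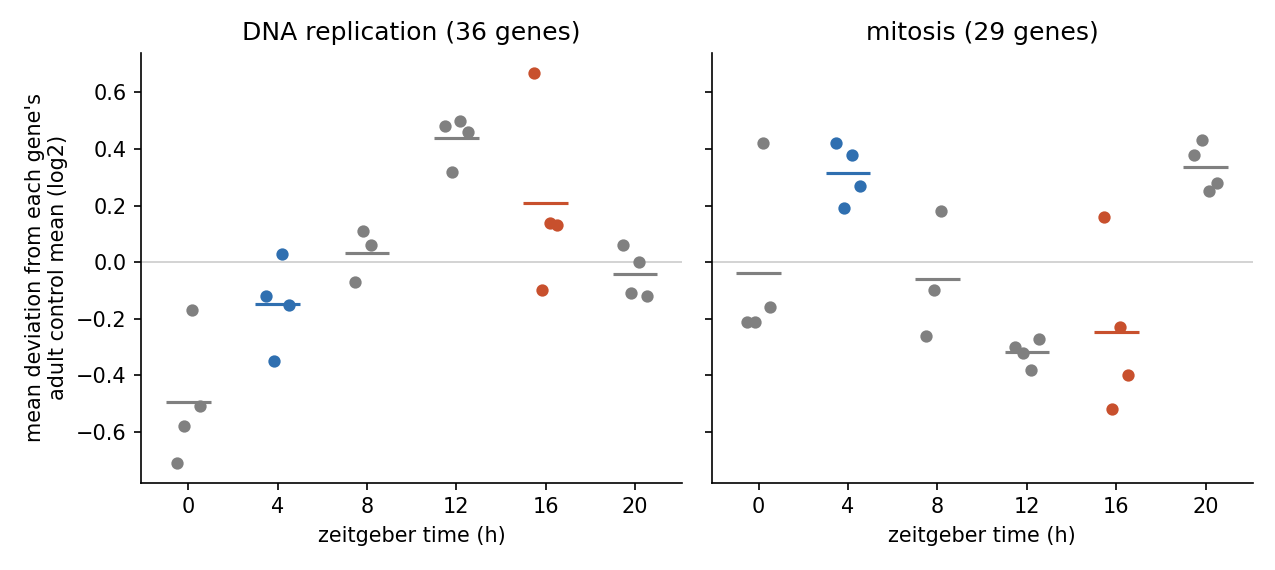
Mean deviation (log2) of the 36 replication genes (left) and the 29 mitosis genes (right) from each gene's mean over adult control arrays, 1 point per array and a line at each time's mean, by zeitgeber time (h). The replication list is highest at ZT12 (0.44) and the mitosis list at ZT20 (0.34) and ZT4 (0.32); the ZT16 array that stands high in both panels is replicate 1.

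Other lists held 0 genes past the adjusted p. In the DNA repair list 21 of 26 tested members lay above 0, with a median of 0.162, and 6 were higher and 1 lower at an unadjusted p under 0.05. Over all genes tested the shares were 46.4% above 0, 3.13% higher and 2.72% lower. The higher ones included Exo1, an exonuclease of mismatch repair (0.32 ± 0.14), and Chek1, a checkpoint kinase (0.46 ± 0.20), and the lower one was Nbn, of the complex that senses double-strand breaks (-0.57 ± 0.23). Without replicate 1 of ZT16 or without replicate 2 of ZT4 the count of higher repair genes was 3. Of 21 tested genes of the unfolded protein response and ER chaperones 20 lay below 0, with a median of -0.232, and 4 were lower at an unadjusted p under 0.05, against 53.6% and 2.72% of all genes tested. Hsp90b1, an ER chaperone, was at 11.19, 11.03, 11.05 and 11.06 at ZT4 and at 10.72, 10.42, 10.97 and 10.83 at ZT16, without overlap (adjusted p = 0.362). Xbp1, the factor that drives this response, stood at 8.83, 8.71, 8.42 and 8.81 at ZT4 and at 8.26, 7.11, 8.56 and 8.17 at ZT16, where replicate 2 was lowest. The median of the chaperone list was -0.133 and the count 1 without replicate 2 of ZT16.

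Metabolic lists had medians between -0.180 and -0.001, against -0.017 over all genes tested. Of 26 tested genes of oxidative phosphorylation 24 lay below 0, against 53.6% of all genes tested, with a median of -0.111. Of these 26, 0 had an unadjusted p under 0.05, and the median was 0.032 without replicate 2 of ZT16. Glycolysis and the TCA cycle had medians of -0.001 and -0.007, fatty acid oxidation -0.099 and cholesterol synthesis -0.180. Sod2, the mitochondrial superoxide dismutase, stood at 10.13, 9.39, 9.78 and 9.85 at ZT4 and at 10.67, 9.88, 10.37 and 10.28 at ZT16 (0.51 ± 0.15, adjusted p = 0.27), and Nqo1, a quinone reductase of the oxidative stress response, differed by -0.60 ± 0.19 (adjusted p = 0.474). Glucocorticoid targets and immediate early genes had medians of -0.087 and 0.066, with 0 members at an unadjusted p under 0.05. Averaged on each array, glucocorticoid targets deviated from their adult control mean by 0.14, 0.20, 0.32 and 0.23 at ZT4. At ZT16 they deviated by -0.51, 0.39, 0.48 and 0.49, where replicate 1 was far below the others and the rest lay above all of ZT4.

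**Figure D4:**
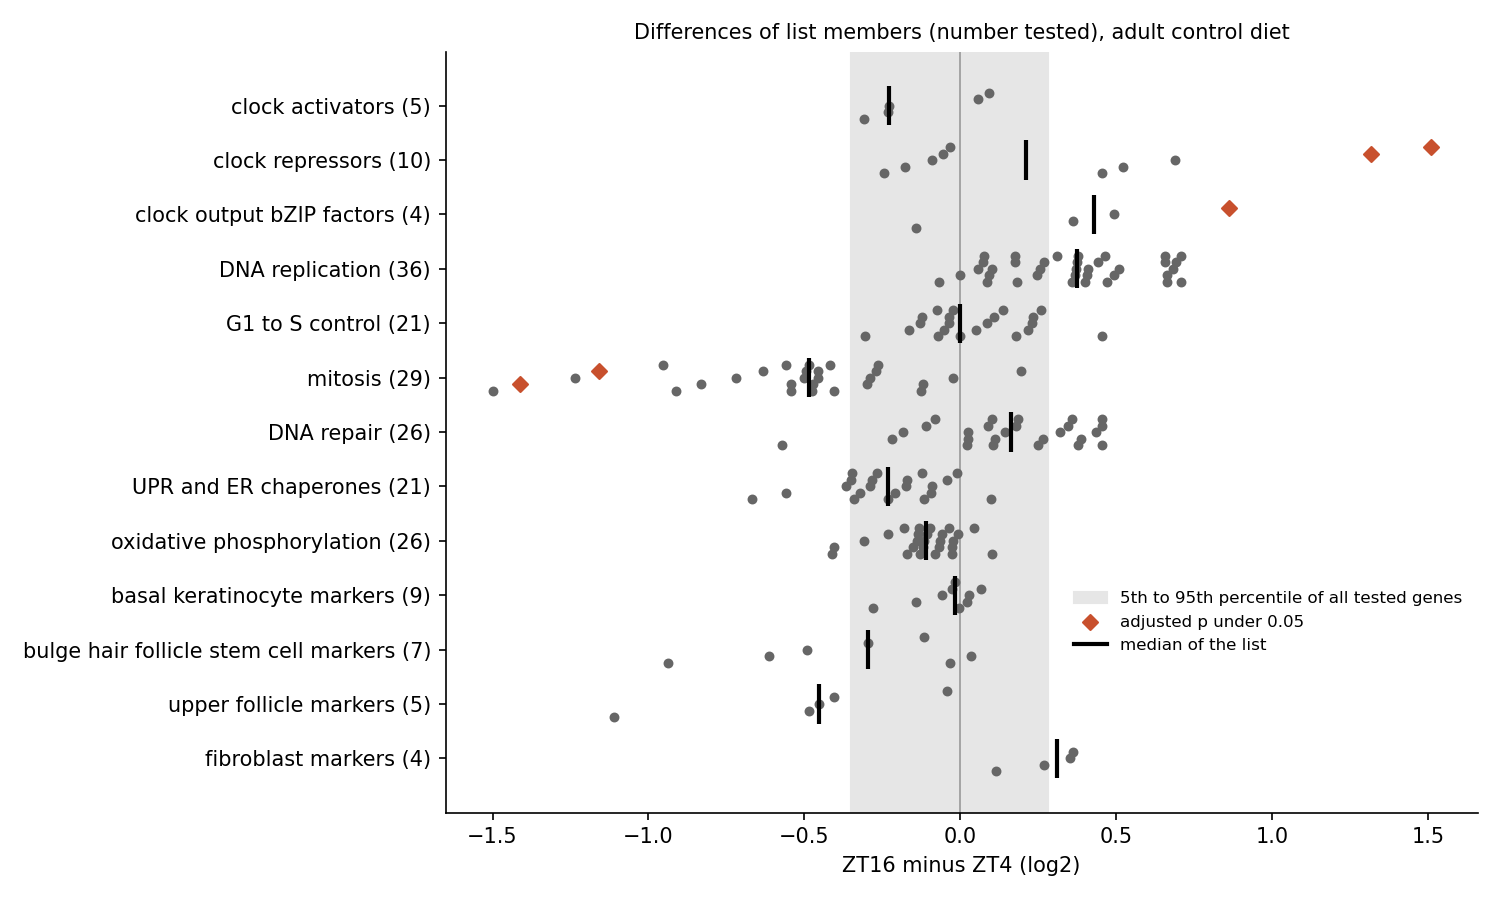
ZT16 minus ZT4 (log2) of every tested member of 13 lists, with the number tested in brackets; diamonds are genes past the adjusted p of 0.05, black bars the median of each list, and the grey band the range from the 5th to the 95th percentile of all tested genes. Most replication genes lie right of 0 (median 0.373) and most mitosis genes left of it (median -0.484), while basal keratinocyte markers centre on 0 (median -0.016).

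No marker of a cell type passed the adjusted p in limma. The markers that differed at an unadjusted p under 0.05 are given here, and their part in the results above was not tested. Over all genes tested 53.6% lay below 0 and 46.4% above, and at that p 2.72% were lower and 3.13% higher. The 5 tested markers of the upper follicle all lay below 0, with a median of -0.453, and 2 were lower at an unadjusted p under 0.05: Krt79, a keratin of the follicle's infundibulum (-1.11 ± 0.53), and Gata6 (-0.45 ± 0.20). Their summed level was 11.35 to 11.95 at ZT4 and 11.43 to 11.54 at ZT16 on the log2 scale. Of 7 tested bulge markers 6 lay below 0, with a median of -0.297, a summed level of 12.86 to 13.04 at ZT4 and 12.71 to 12.88 at ZT16, and 2 lower at an unadjusted p under 0.05. These were Sox9, a transcription factor of follicle stem cells (-0.94 ± 0.41), and Foxc1 (-0.61 ± 0.27). All 4 tested fibroblast markers lay above 0 (median 0.310), with a summed level of 7.37 to 7.88 at ZT4 and 7.44 to 8.39 at ZT16; that of the basal keratinocyte markers was 14.70 to 14.95 over both times. The 6 tested T cell markers had a median of -0.014 and a summed level of 9.57 to 9.96 at ZT4 and 9.02 to 9.56 at ZT16, where the ranges almost touch. Of them 1 was lower at an unadjusted p under 0.05, Thy1 (-0.67 ± 0.32). The 6 tested Langerhans and myeloid markers had a median of -0.125 and a summed level of 9.48 to 9.83 at ZT4 and 9.31 to 9.82 at ZT16. Of 6 tested markers of the hair shaft and matrix 1 was higher at an unadjusted p under 0.05, the hair keratin Krt31 (0.33 ± 0.13). Differentiated keratinocyte markers had a median of -0.019 over 9 tested members, 3 above 0 and 6 below, from -0.978 to 1.041. Groups lay apart for 1 higher and 1 lower member, against 1.02% and 0.919% of all genes tested. At an unadjusted p under 0.05, 1 was higher and 0 lower. This was Tgm3, a transglutaminase, at 9.69, 8.44, 9.58 and 8.34 at ZT4 and at 9.93, 10.09, 10.08 and 10.11 at ZT16 (1.04 ± 0.31, adjusted p = 0.334).

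The difference between ZT16 and ZT4 depended on diet for 6 genes. In the same limma fit, the difference of ZT16 against ZT4 in adult control mice minus that in adult CR mice (6 arrays of ZT4 and 5 of ZT16) passed an adjusted p of 0.05 for 6 of 13383 genes (0.0448%), all 6 with the more positive value on control diet, and 205 genes (1.53%) had an unadjusted p under 0.05. Per2 stood at 7.01 ± 0.19 at ZT4 and 6.86 ± 0.17 at ZT16 under CR (SD, n = 6 and 5), so its difference was -0.15 ± 0.16 there. The difference between the diets was 1.46 ± 0.25 (adjusted p = 1.85e-04). Per3 went from 8.13 ± 0.30 at ZT4 to 7.13 ± 0.37 at ZT16 under CR, and the diets differed by 2.51 ± 0.42 (adjusted p = 1.85e-04). Tef was at 9.33 ± 0.13 and 8.85 ± 0.07 under CR, and the diets differed by 1.34 ± 0.20 (adjusted p = 1.49e-05).

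Dbp and Cry2, which did not pass the test on control diet itself, differed between the diets. Dbp was at 8.35 ± 0.70 at ZT4 and 6.00 ± 0.31 at ZT16 under CR (SD, n = 6 and 5), and the diets differed by 2.71 ± 0.41 (adjusted p = 1.49e-05). Cry2 was at 8.48 ± 0.25 and 7.82 ± 0.18 under CR, and the diets differed by 1.18 ± 0.25 (adjusted p = 0.0247). Without replicate 1, 3 or 4 of ZT16 or replicate 2 or 4 of ZT4 of the control diet, the adjusted p of Cry2 was 0.0923, 0.0808, 0.247, 0.0705 and 0.201. The widest gap belonged to Sphk2, a sphingosine kinase whose gene overlaps that of Dbp in RefSeq (GRCm38.p6). Its levels on control diet were 8.32, 7.24, 9.07 and 7.77 at ZT4 and 9.27, 8.09, 8.88 and 8.88 at ZT16, a difference of 0.68 ± 0.33 (adjusted p = 0.844), against -2.80 ± 0.28 under CR. The diets differed by 3.49 ± 0.43 (adjusted p = 4.66e-08). A second probe set of Sphk2 gave -0.44 on control diet, and whether the brighter one reads Dbp transcripts was not tested.

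The called genes of cell division were lower at ZT16 under CR too. Under CR the differences were -1.12 ± 0.25 for Aspm, -1.08 ± 0.25 for Cenpf, -1.34 ± 0.28 for Cdkn3 and -1.03 ± 0.23 for Cdc20, and each was called there as well. The differences between the diets were -0.37 ± 0.39, -0.33 ± 0.39, -0.10 ± 0.43 and -0.13 ± 0.35, all with an adjusted p of 1, which does not show that the diets were alike. In adult CR mice 27 genes passed (0.202%). Of the 9 genes of the control diet 4 were among them. The median of the mitosis list was -0.391 under CR, and for 0 of its 29 members did the interaction with diet reach an unadjusted p under 0.05. The median of the replication list was -0.115 under CR against 0.373 on control diet, and for 13 of its 36 members the interaction reached that p, 0 of them past the adjusted p, against 1.53% of all genes tested.

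No gene was called different between adult and aged mice on control diet. The interaction in limma gave 0 genes (0%), with 987 (7.38%) at an unadjusted p under 0.05. In aged mice (83 to 97 weeks, 4 arrays at each time) 115 genes passed for ZT16 against ZT4 (0.859%), and these held 9 of the 9 genes called in adult mice, each with the same sign. The differences there were 1.21 ± 0.19 for Per2, 1.47 ± 0.32 for Per3, 1.27 ± 0.15 for Tef and 0.55 ± 0.13 for Mthfd1l, and -1.68 ± 0.29 for Aspm, -1.61 ± 0.30 for Cenpf, -1.59 ± 0.32 for Cdkn3, -1.11 ± 0.26 for Cdc20 and -1.10 ± 0.16 for Tmem269. Both sets of calls use 1 common estimate of the spread. Xist minus the mean of the Y-linked genes was -1.36, -1.36, -2.76 and 6.81 on the aged ZT4 arrays (replicates 1 to 4). On the aged ZT16 arrays it was 6.79, 7.07, 0.79 and 7.10. By this measure the sexes were not spread evenly over the 2 times in aged mice. The part of this in the aged calls was not tested. The median of the mitosis list was -0.750 and that of the replication list 0.337 in aged mice. The 6 genes with the smallest p for a difference between the ages, none past the threshold (adjusted p = 0.652 each), were Samd7 (0.75 ± 0.20, log2 ± SE), Vmn1r10 (1.18 ± 0.32), Sost (0.50 ± 0.14), Qpct (0.63 ± 0.18), Glipr1 (0.57 ± 0.16) and Pde3a (0.90 ± 0.26).

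**Figure D5:**
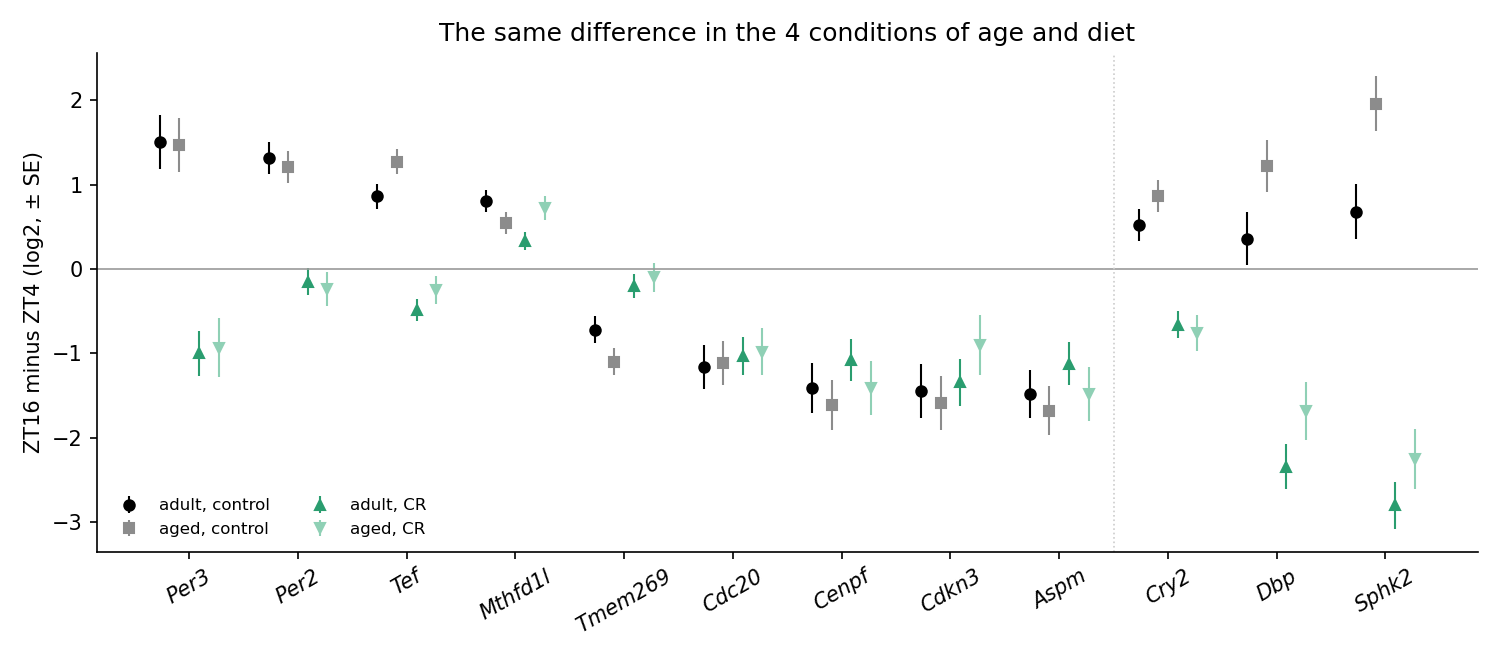
ZT16 minus ZT4 (log2, bars are the SE of the limma fit) in the 4 conditions of age and diet for the 9 called genes and, right of the dotted line, Cry2, Dbp and Sphk2. On control diet Per2, Per3 and Tef are above 0 at both ages and at or below 0 under CR, while Aspm, Cenpf, Cdkn3 and Cdc20 are below 0 in all 4 conditions.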

How the data were processed

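RNA of epidermal stem cells was measured on Affymetrix arrays, after amplification of 25 ng of total RNA over 17 cycles per the labels' protocols. The deposited values are log2 levels that the authors made with RMA (no version is given), per the submitters' processing notes. They range from 3.19 to 13.07. Of 45140 probe sets 103 controls were left out, 28898 had 1 gene symbol, 551 several and 15588 none. The brightest probe set stood for a gene (17097 genes), and genes with a mean under 4.735, the 30th percentile, were left out. The number of arrays limits the precision.

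One limma model (limma 3.58.1, R 4.3.3) fitted on all arrays, 1 mean for each of 24 groups, gave the ZT16 minus ZT4 contrast and the differences between conditions, with Benjamini-Hochberg adjustment over 13383 genes. The code was tested on simulated data. Replicates were taken as separate mice. The series' design names 4 mice for each time point and diet, whereas adult CR held 6 arrays at ZT4 and 5 at ZT16. For groups of another size than 4, separate mice are an assumption. Named were all genes past the threshold, all tested clock members and the 6 smallest p of each difference between conditions; others are said to be chosen after the values were seen. The comparison and the 38 gene lists (514 genes, 421 tested) were chosen with earlier results of these data known. Promoters came from RefSeq (GRCm38.p6).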

Additional observations from a re-analysis of the deposited data

Results flagged for a closer look

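For 6 genes the difference between ZT16 and ZT4 in adult mice depended on diet, by the interaction test in limma. The difference on control diet minus that under CR was 3.49 for Sphk2, 2.71 for Dbp, 2.51 for Per3, 1.46 for Per2, 1.34 for Tef and 1.18 for Cry2, on the log2 scale. No array stood out from its group of 4 in the 52 groups checked, which were the ZT4 and ZT16 arrays of 26 genes; chance alone marks about 1 group in 20.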

How the results depend on the processing

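The count of 9 genes stayed within 1.5 times of itself in 10 of 24 alternatives. It was 4 in the fit on the 8 arrays alone, 5 with a replicate block on those arrays, 17 with arrays centred on their median and 16 with the array background as a covariate. It was 1952 with array weights, which did not converge and gave replicate 4 of ZT16 a weight of 10.785, and 165 with weights estimated gene by gene, an alternative chosen after seeing the data. It lay between 3 and 14 when 1 array was left out. The count of 6 for the diets was 10 with the mean of a gene's probe sets, 24 and 12 with the 2 kinds of weights and 10 with the background covariate, and 5 to 7 without 1 array. The count of 0 for the ages was 79 with the unconverged weights and 0 in the other 20 alternatives. The cause was not tested. Replicate numbers were not taken as pairs, since the labels do not tie them together and not every pair of same-numbered arrays had a correlation of deviations above 0.1 (0.262, 0.488, 0.123 and -0.044, against -0.591 to 0.359 for arrays of different number). The replicate block on all arrays gave 13 genes with the same 9 among them. Values that changed sign were all of genes or lists not past the threshold: Arntl 0.28 and 0.16 with the 2 kinds of weights, 0.02 with the background covariate, -0.42 to 0.16 without 1 array; Arntl2 -0.13 and -0.33 with other probe sets, -0.01 with weights, -0.02 and -0.01 without 1 array; Rora -0.03 without 1 array; Per1 0.31 and 0.18 with weights and -0.39 to 0.13 without 1 array. Nr1d2 was 0.03 centred, 0.04 quantile normalized again, 0.09 with the background covariate and -0.18 to 0.14, with 0.08 between, without 1 array. Bhlhe40 was 0.00 centred, 0.17 and 0.12 with weights and -0.15 to 0.02 without 1 array. Csnk1d was 0.14 with each probe set tested, 0.10 and 0.07 with weights, 0.07 with the background covariate and -0.21 to 0.01 without 1 array. Dbp was -0.01 with weights, and Nfil3 0.04 with weights and 0.02 with the background covariate. The median of oxidative phosphorylation was 0.005 with the background covariate and -0.233 to 0.032 without 1 array, 0.032 being without replicate 2 of ZT16.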
